A study of Mus musculus with 9 samples.

Results

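Genes of the lysosome were followed in cultures of mouse pro-B cells, the early B lineage cells that grow from bone marrow when interleukin-7 is given. The 34 genes encode acid hydrolases, their helpers, membrane proteins of the lysosome, subunits of its proton pump and the transcription factor Tfeb. They were chosen by symbol, and all 34 had a row in both deposited tables, among 23279 gene rows, and passed the filter on low values with 10878 genes in all. The study held 9 libraries in 3 groups of 3, all from bone marrow of mice 6 to 8 weeks old, cultured for 7 days, with colonies pooled. The wild-type group were littermates, for which the sources used here give no background. The HMGN1_OE group overexpressed Hmgn1 on C57BL/6. Ts1Rhr mice, on an F1 background of FVB and C57BL/6, are trisomic for the part of chromosome 16 that runs from Cbr1 to Fam3b and holds Hmgn1. Genotype and strain therefore cannot be told apart between the mutant groups. As no background is given for wild type, strain may also differ in each comparison with wild type. The sources used here do not name the promoter that drives Hmgn1. The cell type entry names Ts1Rhr for every sample, so groups were taken from the genotype entry, and the samples are called biological replicates with no statement of separate animals. The p-values below therefore reflect only how these samples spread, which may be technical.

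Values are FPKM (fragment counts divided by transcript length and library size), so levels can be set against each other per length. The raw table and a second table, normalised further by the authors and called spike-in normalised here, were both used, and the sequencing depth is unknown. All 12 pro-B marker genes listed had a mean of at least 1 raw FPKM, and so did 16 of 18 macrophage and monocyte markers, of which 1 had no row. Macrophage RNA was therefore measured in every library, and no sort on the pooled colonies is stated. Summed over the macrophage markers without Lyz2, raw FPKM ranged from 1505 to 2244 in wild type, from 889 to 1678 in HMGN1_OE and from 977 to 1059 in Ts1Rhr. Mast cell and erythroid markers were near 0, with summed raw FPKM of at most 4.34 and 0.512 in any library, and Mcpt4, Cma1, Tpsb2, Hba-a1 and Hbb-b1 were among those listed at 0 throughout. Ts1Rhr replicate 3 stood apart, for it alone had Y-linked Ddx3y (41.8 raw FPKM) and almost no Xist (0.443 raw FPKM). It thus came from a mouse of another sex than Ts1Rhr replicates 1 and 2, and the spread within Ts1Rhr includes sex. In bulk RNA, fewer cells of a type and less RNA per cell cannot be told apart.

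The lysosome is the acidic compartment in which cells digest proteins, glycans and lipids. Its hydrolases are made in the secretory pathway, and a proton pump, the V-ATPase, keeps the lumen acidic enough for them to work. Phagocytes such as macrophages are rich in lysosomes. Tfeb and its relatives of the MiT/TFE family bind E-box motifs at many lysosomal genes and are held back by mTORC1 kinase when nutrients are plentiful.

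The promoters of the 34 genes were searched for the E-box motifs of that family. RefSeq promoter windows of 300 bases (GRCm38.p6, most of each window before the start site) were matched for 28 of the 34 genes, and both strands were searched. The full palindrome of the CLEAR element, the consensus site of Tfeb, was in 0 of these 28 and in 0.37% of 27025 genes. Its core TCACGTGA was in 6 of 28 members, or 21.4%, against 1.12% of all genes and 2.41% of the 8166 tested genes with a window. The core E-box CACGTG, which lies inside both, was in 10 members, or 35.7%, against 8.09% of all genes and 12.3% of tested ones. GAGGAAGT, a motif bound by PU.1, a factor of myeloid and B cells, was in 4 members (Ctsc, Ctss, Gla and Gusb), or 14.3%, against 3.69% and 4.2%. A match is a string of letters in a window and no measurement of binding. As the family binds such motifs at many lysosomal genes, matches are likely in any list of them. A link of the matches to differences between groups was not tested. The windows around each TCACGTGA that begins before a start site are shown, with the motif in capitals, because they cover members of 4 roles: proteases, a glycosidase, an ion channel and subunits of the pump. The last line shows Lamp1, chosen after the search for its 4 copies of CACGTG, here in capitals.
Ctsa, chr2:164833749-164833778, plus strand: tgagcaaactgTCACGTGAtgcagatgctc
Ctsd, chr7:142387908-142387937, minus strand: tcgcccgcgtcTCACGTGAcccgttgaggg
Gla, chrX:134601182-134601211, minus strand: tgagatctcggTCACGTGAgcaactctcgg
Gla, chrX:134601215-134601244, minus strand: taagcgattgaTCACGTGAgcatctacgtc
Mcoln1, chr8:3500462-3500491, plus strand: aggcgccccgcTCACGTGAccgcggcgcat
Atp6v0d1, chr8:105566050-105566079, minus strand: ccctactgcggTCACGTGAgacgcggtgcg
Atp6v1a, chr16:44139358-44139417, minus strand: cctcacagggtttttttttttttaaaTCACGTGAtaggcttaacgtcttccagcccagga
Lamp1, chr8:13159096-13159155, plus strand: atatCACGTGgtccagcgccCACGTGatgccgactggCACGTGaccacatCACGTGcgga

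Of the sites shown, the closest began 4 bases before the start site of Atp6v0d1 and the farthest 228 bases before that of Gla, which held a second copy at 195. Ctsa also held a second copy, not shown, that begins at base 5 after its start site. None of the 34 genes lies between Cbr1 and Fam3b in the RefSeq annotation, so none is triplicated in Ts1Rhr. Atp6v1a is on chromosome 16 outside that segment, and Gla and Lamp2 are on chromosome X.

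The levels of the genes spanned a wide range. Leaving out Atp6v0c, whose row is uncertain (below), 4 genes had a mean of at least 1000 raw FPKM, 17 lay between 100 and 1000, and 12 lay below 100. Ctsd, the main aspartic protease of lysosomes, was highest, with 7649.8 ± 1274 raw FPKM in wild type (SD, n = 3), followed by Psap, the precursor of the saposins that help break down sphingolipids, at 6285 ± 1383. Ctss, a cysteine protease of antigen-presenting cells, came next at 3717 ± 811. Gaa, acid alpha-glucosidase, had 20.7 ± 0.748, and Tfeb had 19.1 ± 1.92. The summed raw FPKM of all 34 genes was 5.51%, 4.63% and 4.91% of each wild-type library, 4.07%, 4.73% and 3.05% in HMGN1_OE and 3.20%, 2.85% and 3.40% in Ts1Rhr. Every wild-type share was above every Ts1Rhr share, and HMGN1_OE overlapped both. Ctsd, Psap and Ctss together made up 3.66%, 3.09% and 3.22% in wild type and 2.07%, 1.75% and 2.17% in Ts1Rhr. Wild-type replicate 1 was the highest library for 31 of the 33 genes other than Atp6v0c, the exceptions being Ctsc, highest in wild-type replicate 2, and Scarb2, highest in wild-type replicate 3.

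**Figure D1:**
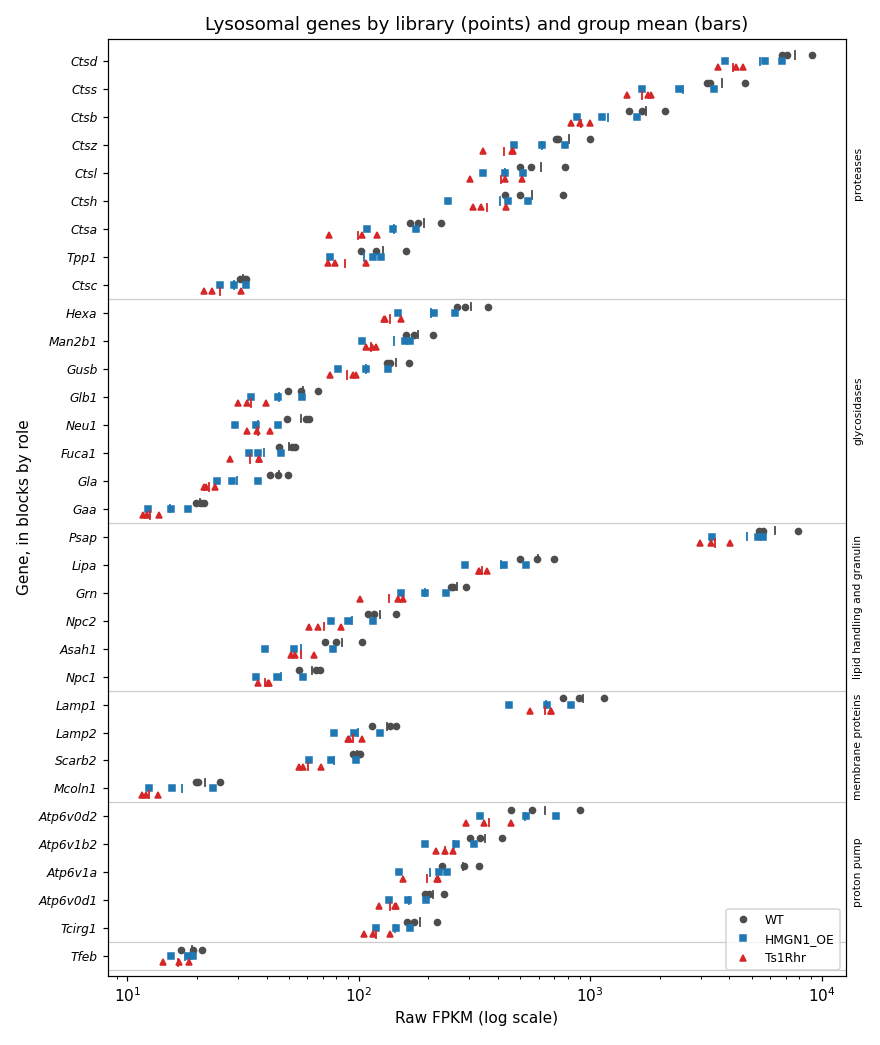
Raw FPKM on a log axis for 33 lysosomal genes in blocks by role; points are libraries (3 per group, by colour and shape) and short bars are group means. Ctsd, Psap and Ctss lie highest, and the red Ts1Rhr points lie left of the grey wild-type points for 27 genes.

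Ts1Rhr was first set against wild type. On raw FPKM, 17 of the 34 genes fell in Ts1Rhr by limma at an adjusted p under 0.05, against 4.56% of the 10878 tested genes, and 0 rose, against 4.29%. All 34 fitted log2 fold changes were below 0, against 48.9% of all genes. For 27 genes every Ts1Rhr value lay below every wild-type value, against 18.5% of all genes. The median log2 fold change over the 34 was -0.70, beside 0.01 over all tested genes. On spike-in normalised FPKM, limma called 0 of the 34 at that threshold, against 0.57% of all genes in either direction and 0.147% lower. There 23 genes had an unadjusted p under 0.05 and a lower level, against 6.3% of all genes, and the lowest adjusted p was 0.0896, for Hexa. This count of 23 was 6 without wild-type replicate 1, 8 without Ts1Rhr replicate 2 and 11 without Ts1Rhr replicate 3, and 16 to 31 in the other fits that left out 1 library. How many of all genes reached that p was not counted in those fits. With all 9 libraries, all 34 were again below 0, against 40.1%, and for 27 the groups did not overlap, against 8.43%. The median was -0.81, beside 0.12 over all genes. By role, the median log2 fold change on raw and normalised FPKM was -0.88 and -1.10 for proteases, -0.71 and -0.79 for glycosidases, -0.81 and -0.97 for lipid handling and granulin, -0.63 and -0.75 for membrane proteins, and -0.62 and -0.77 for the pump. The sign was thus the same in both tables, and the test was passed only in the raw one. The raw count also rested on single libraries. It was 0 without wild-type replicate 1, wild-type replicate 3, Ts1Rhr replicate 2 or Ts1Rhr replicate 3. It was 3 without wild-type replicate 2, 5 without Ts1Rhr replicate 1 and 9 without HMGN1_OE replicate 1. Calls over all genes fell in the same fits, from 963 to 1, 2, 3, 1, 535, 293 and 737 in that order. In each of these fits 33 or 34 of the 34 fold changes stayed below 0. Without both wild-type replicate 1 and Ts1Rhr replicate 3, limma called 0 members and 2 of all genes. There 33 of 34 fold changes stayed below 0, with a median of -0.61.

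**Figure D2:**
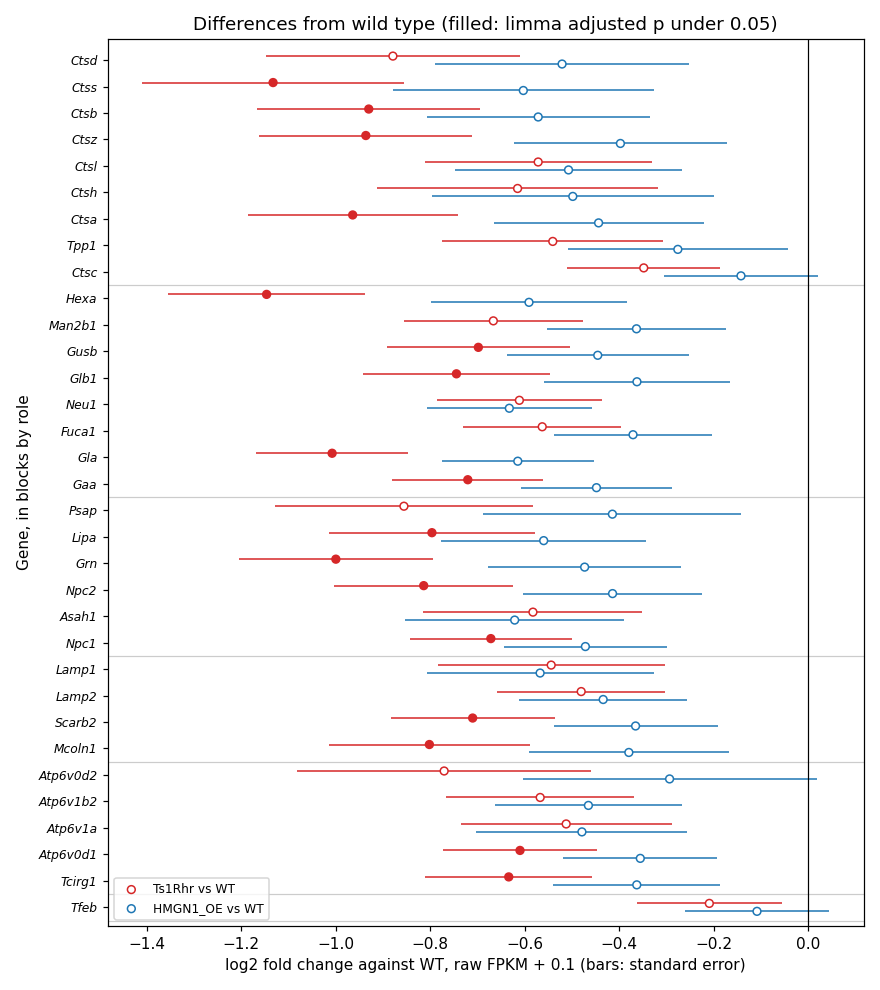
Log2 fold change against wild type on raw FPKM + 0.1 for 33 lysosomal genes; points are limma estimates, bars their standard errors, red Ts1Rhr and blue HMGN1_OE, filled where the adjusted p was under 0.05. All points lie below 0, the 17 filled ones are all Ts1Rhr, and Tfeb lies nearest to 0 for both.

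Markers of other cells moved with this comparison as well. On raw FPKM, 7 of the 16 macrophage markers tested fell, against 4.56% of all genes. For 14 the groups did not overlap, all lower, against 18.5% of all genes. Of 8 neutrophil markers 0 passed, and their summed level was 155 to 255 in wild type, 61.8 to 211 in HMGN1_OE and 69.2 to 165 in Ts1Rhr. All 5 stromal markers tested fell, and their sum was 62.2 to 91.6 in wild type, 4.93 to 13.04 in HMGN1_OE and 6.32 to 14.9 in Ts1Rhr. Of 6 osteoclast markers 1 fell, and of 3 dendritic markers 0 did. Of the 12 pro-B markers 4 rose, against 4.29% of all genes, while 10 had a log2 fold change above 0 and 2 below it. Their sum was 871 to 1243 in wild type, 1246 to 1620.0 in HMGN1_OE and 1228 to 1533 in Ts1Rhr. The part of stromal, neutrophil and pro-B RNA in the lysosomal values was not tested.

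Among the 9 proteases, 4 fell in Ts1Rhr on raw FPKM. Ctss, which trims the invariant chain for antigen presentation, was at 4651, 3200.1 and 3299 in wild type, 2432, 3429.6 and 1680 in HMGN1_OE and 1831, 1437 and 1771 in Ts1Rhr (raw FPKM). Every Ts1Rhr value was below the lowest wild-type value, while HMGN1_OE spanned both, and the log2 fold change in Ts1Rhr was -1.13 ± 0.28 (SE), with a limma adjusted p of 0.0374. Ctsa, a carboxypeptidase that also shields Glb1 and Neu1 from breakdown and whose promoter is shown above, was at 228, 179.5 and 166 in wild type, 140.0, 177 and 109 in HMGN1_OE and 119, 74.4 and 103 in Ts1Rhr. Its lowest library was Ts1Rhr replicate 2, and its log2 fold change was -0.96 ± 0.22 (adjusted p 0.0351). Ctsz, another carboxypeptidase, was at 996, 726 and 715 in wild type, 622, 778 and 467.2 in HMGN1_OE and 466.6, 343 and 461 in Ts1Rhr, and all 3 Ts1Rhr values were below all values of both other groups. It changed by -0.94 ± 0.23 on the log2 scale (adjusted p 0.0374). Ctsb, an abundant cysteine protease, was at 2104, 1466 and 1680.2 in wild type, 1123, 1596 and 881 in HMGN1_OE and 997, 828 and 907 in Ts1Rhr. Its Ts1Rhr values were all below wild type, with a log2 fold change of -0.93 ± 0.24 (adjusted p 0.0405).

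Ctsd, the most abundant of all, was at 9112, 6774 and 7063 in wild type, 5693, 6746 and 3843 in HMGN1_OE and 4564, 3580.4 and 4289.8 in Ts1Rhr. Its Ts1Rhr values were also all below wild type, yet with a log2 fold change of -0.88 ± 0.27 it missed the threshold (limma adjusted p 0.0615), and its promoter holds the motif too. The other 4 proteases overlapped between Ts1Rhr and wild type and did not pass. Ctsl, an endopeptidase, Ctsh, an aminopeptidase, and Tpp1, which removes tripeptides, had log2 fold changes of -0.57 ± 0.24, -0.62 ± 0.30 and -0.54 ± 0.23. Ctsc, which activates the serine proteases of granules, had the smallest difference of the group, -0.35 ± 0.16, with values of 31.8, 32.6 and 30.7 in wild type, 28.9, 32.4 and 25.2 in HMGN1_OE and 31.1, 23.2 and 21.4 in Ts1Rhr. Ctsc in Ts1Rhr replicate 1 was within the range of the wild-type libraries.

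Among the 8 glycosidases, 5 fell in Ts1Rhr on raw FPKM, and for all 8 the Ts1Rhr and wild-type values did not overlap. Hexa, the alpha subunit of beta-hexosaminidase that is defective in Tay-Sachs disease, was at 364, 266 and 287 in wild type, 211, 260.0 and 148 in HMGN1_OE and 152, 129.8 and 129 in Ts1Rhr. It had the largest difference of the 17, -1.15 ± 0.21 on the log2 scale (limma adjusted p 0.0296), a level 0.452 times that of wild type. Its normalised FPKM were 499, 296 and 224 in wild type, 222, 372 and 149 in HMGN1_OE and 146, 124 and 117 in Ts1Rhr, with a difference of -1.32 ± 0.36 that did not pass. Gla, alpha-galactosidase A, the X-linked enzyme of Fabry disease, was at 49.5, 41.6 and 44.8 in wild type, 28.4, 36.9 and 24.5 in HMGN1_OE and 24.0, 21.5 and 21.8 in Ts1Rhr. Its 3 Ts1Rhr values lay close together, below all libraries of both other groups, and the value of the male library was between those of the other 2. The log2 fold change was -1.01 ± 0.16, with the lowest adjusted p of the set, 0.0255.

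Glb1, lysosomal beta-galactosidase, was at 66.6, 56.1 and 49.7 in wild type, 44.9, 57.1 and 34.1 in HMGN1_OE and 39.6, 30.2 and 32.9 in Ts1Rhr, with a log2 fold change of -0.74 ± 0.20 (limma adjusted p 0.0456). Gaa, which breaks down glycogen and is defective in Pompe disease, was at 21.3, 20.8 and 19.9 in wild type, 15.4, 18.3 and 12.3 in HMGN1_OE and 13.7, 12.2 and 11.7 in Ts1Rhr and changed by -0.72 ± 0.16 (adjusted p 0.0326). Gusb, beta-glucuronidase, was at 165, 133 and 136 in wild type, 108, 134 and 81.0 in HMGN1_OE and 94.9, 75.4 and 97.0 in Ts1Rhr and changed by -0.70 ± 0.19 (adjusted p 0.0483). In all 3, HMGN1_OE replicate 2 lay near the wild-type values and HMGN1_OE replicate 3 near the Ts1Rhr values. The 3 that did not pass lay just outside the threshold, with differences of -0.67 ± 0.19 for Man2b1, a mannosidase, -0.61 ± 0.17 for Neu1, a sialidase, and -0.56 ± 0.17 for Fuca1, a fucosidase, at adjusted p of 0.0508, 0.0515 and 0.0567.

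Of the 6 genes of lipid handling with progranulin, 4 fell in Ts1Rhr on raw FPKM, and for all 6 the groups did not overlap. Grn, progranulin, whose loss causes lysosomal storage in neurons, was at 289.7, 251 and 257 in wild type, 193, 238 and 152 in HMGN1_OE and 156, 101 and 148 in Ts1Rhr. Its log2 fold change was -0.9996 ± 0.20 (limma adjusted p 0.0325), with Ts1Rhr replicate 2 lowest. Npc2, a soluble cholesterol carrier of the lumen, was at 146, 117 and 109.5 in wild type, 89.6, 116 and 76.0 in HMGN1_OE and 83.9, 61.3 and 66.6 in Ts1Rhr and changed by -0.81 ± 0.19 (adjusted p 0.0359). Npc1, the membrane protein to which Npc2 passes cholesterol, was at 68.3, 55.5 and 65.1 in wild type, 44.6, 57.4 and 36.1 in HMGN1_OE and 40.5, 40.8 and 36.9 in Ts1Rhr and changed by -0.67 ± 0.17 (adjusted p 0.0409). Both partners were thus lower in all 3 Ts1Rhr libraries than in any wild-type one. Lipa, the acid lipase that frees cholesterol from its esters, was at 701, 500.2 and 589.9 in wild type, 424, 526 and 289 in HMGN1_OE and 332, 359 and 331 in Ts1Rhr, with a log2 fold change of -0.80 ± 0.22 (adjusted p 0.0475). Psap was at 7878, 5396 and 5580.1 in wild type, 5337, 5582 and 3363 in HMGN1_OE and 3319.7, 2983 and 4043 in Ts1Rhr. With a difference of -0.86 ± 0.27, Psap did not pass (adjusted p 0.0685), and its wild-type replicate 1 was far above the other libraries. Asah1, acid ceramidase, differed by -0.58 ± 0.23 (adjusted p 0.118).

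Of the 4 membrane proteins, 2 fell in Ts1Rhr on raw FPKM. Scarb2, which carries beta-glucocerebrosidase to the lysosome, was at 99.97, 94.3 and 101 in wild type, 75.8, 97.0 and 60.7 in HMGN1_OE and 68.9, 57.5 and 55.0 in Ts1Rhr. Its wild-type values were close together, and its log2 fold change was -0.71 ± 0.17 (limma adjusted p 0.0374). Mcoln1, a calcium-permeable channel and known target of Tfeb with the motif shown above, was at 25.1, 19.9 and 20.2 in wild type, 15.7, 23.4 and 12.4 in HMGN1_OE and 11.5, 12.0 and 13.6 in Ts1Rhr and changed by -0.80 ± 0.21 (adjusted p 0.0456). Lamp1, the most abundant membrane protein here, was at 1148, 764 and 896 in wild type, 652, 831 and 446 in HMGN1_OE and 551, 677 and 679 in Ts1Rhr. Its Ts1Rhr values were below wild type, but HMGN1_OE replicate 3 was lowest of all, and its difference of -0.54 ± 0.24 did not pass (adjusted p 0.152). Lamp2, needed for fusion with autophagosomes, differed by -0.48 ± 0.18 (adjusted p 0.0981). As Lamp2 is X-linked, its Ts1Rhr values of 89.6, 103 and 90.4 were checked, and the male library lay between the others.

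Of the 6 proton pump genes, 2 fell in Ts1Rhr on raw FPKM. Atp6v0d1, the d subunit found in most cells, was at 234, 193 and 201 in wild type, 163, 195 and 135 in HMGN1_OE and 145, 123 and 143 in Ts1Rhr and changed by -0.61 ± 0.16 on the log2 scale (limma adjusted p 0.0461). Tcirg1, the a3 subunit, part of the pumps of lysosomes and of the osteoclast membrane, was at 219, 161 and 174 in wild type, 146, 167 and 119 in HMGN1_OE and 115, 105 and 136 in Ts1Rhr and changed by -0.63 ± 0.18 (adjusted p 0.0492). In both genes the Ts1Rhr values lay below those of wild type, and HMGN1_OE overlapped both groups. Atp6v0d2, the d subunit of osteoclasts and macrophages, was the most abundant pump gene, at 900.1, 454 and 562 in wild type, 709, 528 and 333 in HMGN1_OE and 290.2, 349 and 456 in Ts1Rhr. It varied more within groups than Atp6v0d1, overlapped between Ts1Rhr and wild type, and its difference of -0.77 ± 0.31 did not pass (adjusted p 0.123). Of the cytosolic part, Atp6v1a, the catalytic subunit, differed by -0.51 ± 0.22 and Atp6v1b2, a regulatory one, by -0.57 ± 0.20, at adjusted p of 0.147 and 0.0853.

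Atp6v0c, which forms the membrane ring of the pump, gave a row that could not be read as a level of the gene. Its raw FPKM were 27.7, 8.57 and 10.4 in wild type, 0.01, 16.6 and 21.4 in HMGN1_OE and 23.6, 22.9 and 0.01 in Ts1Rhr, so it was listed at 0.01 in HMGN1_OE replicate 1 and Ts1Rhr replicate 3. The row of Atp6v0c-ps2, named as a pseudogene copy, was at 1549.6, 1157 and 1348 in wild type, 972, 1221 and 732 in HMGN1_OE and 739, 710.1 and 943 in Ts1Rhr, above the other pump genes. How fragments were shared between the gene and such a copy is unknown from the sources used here, so no fold change is given for Atp6v0c. It counts among the 34 in the totals above.

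**Figure D3:**
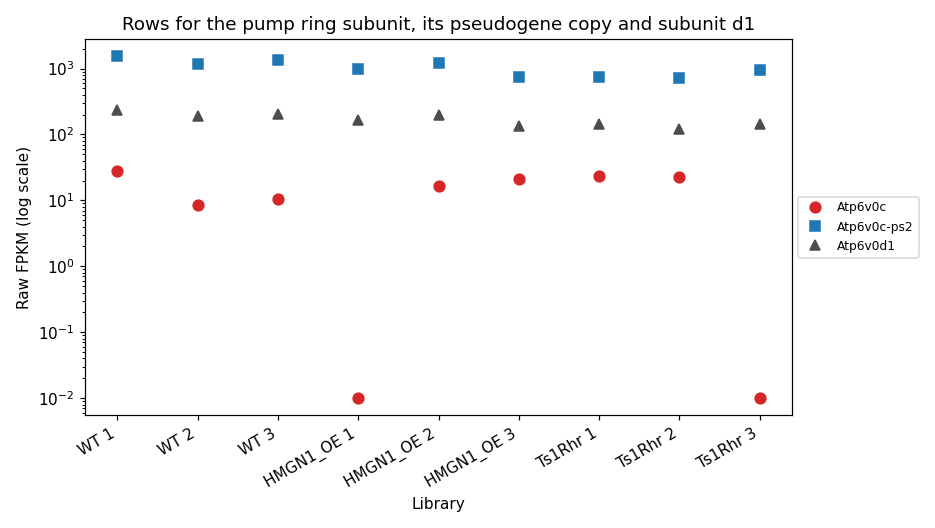
Raw FPKM on a log axis in the 9 libraries for Atp6v0c (red circles), Atp6v0c-ps2 (blue squares) and Atp6v0d1 (grey triangles). The pseudogene row lies above Atp6v0d1 throughout, and Atp6v0c drops to 0.01 in HMGN1_OE replicate 1 and Ts1Rhr replicate 3.

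Tfeb, the factor itself, was at 20.9, 19.2 and 17.1 in wild type, 15.4, 19.1 and 18.5 in HMGN1_OE and 16.8, 14.3 and 18.4 in Ts1Rhr. The groups overlapped, and its log2 fold change was -0.21 ± 0.15 in raw FPKM (limma adjusted p 0.376) and -0.12 ± 0.27 in normalised FPKM (adjusted p 0.830). Tfeb thus had the smallest difference of the 34 in both tables.

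HMGN1_OE was set against the same wild-type libraries, so its values are not independent of those above. On raw FPKM, limma called 0 of the 34 genes, against 0.0368% of all genes in either direction, and 14 had an unadjusted p under 0.05 and a lower level, against 7.39%. The 14 became 27 without HMGN1_OE replicate 2, 2 without HMGN1_OE replicate 3, 7 without HMGN1_OE replicate 1, 3 without wild-type replicate 1, 6 without wild-type replicate 3 and 9 without Ts1Rhr replicate 3. How many of all genes reached that p was not counted in the fits that left out 1 library, in either table. With all 9 libraries, all 34 were below 0, against 48.3% of all genes, with a median log2 fold change of -0.45 beside 0.01. Only Neu1, Gla, Hexa, Ctsd, Grn and Gaa had all HMGN1_OE values below all wild-type values, 6 of 34 against 8.25%. Neu1 was at 60.9, 49.0 and 59.1 in wild type, 36.1, 44.8 and 29.2 in HMGN1_OE and 32.9, 41.2 and 36.4 in Ts1Rhr and had the largest difference of the members other than Atp6v0c, -0.63 ± 0.17 (adjusted p 0.273). Asah1 and Gla followed at -0.62 ± 0.23 and -0.61 ± 0.16. HMGN1_OE was uneven: replicate 2 was like wild type, with Hexa at 260.0, and replicate 3 like Ts1Rhr, with 148. On normalised FPKM 32 of 34 were below 0, against 27.3%, limma called 0 (against 0.0919% of all genes in either direction), 0 had an unadjusted p under 0.05 (against 11.7%), and every gene overlapped (against 0.8% fully lower). The median there was -0.32, beside 0.21 over all genes. The number below 0 on normalised FPKM rested on single libraries. It was 21 of 34 without wild-type replicate 1 (median -0.041, beside 0.29 over all genes). It was 23 without HMGN1_OE replicate 3 (median -0.056, beside 0.22). Relative to all genes the median of the members stayed below 0 in both fits, at -0.33 and -0.28. Without HMGN1_OE replicate 2, 8 members had an unadjusted p under 0.05 and a lower level.

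Between the mutant groups limma called 0 of the 34 genes and 0% of all genes in either table. On raw FPKM 30 of 34 were lower in Ts1Rhr than in HMGN1_OE, against 49.7% of all genes, with a median of -0.27. An unadjusted p under 0.05 with a lower level was reached by 5, against 4.95%, but by 19 without HMGN1_OE replicate 3, 9 without Ts1Rhr replicate 1, 2 without Ts1Rhr replicate 3, 1 without HMGN1_OE replicate 1 and 0 without HMGN1_OE replicate 2 or Ts1Rhr replicate 2. Ctsz and Gla did not overlap, 2 of 34 against 5.99%, with log2 differences of -0.54 ± 0.23 and -0.39 ± 0.16. On normalised FPKM 33 were lower, against 62.5%, 4 reached an unadjusted p under 0.05, against 3.5%, and Ctsz, Hexa, Grn and Ctsb did not overlap, 4 of 34 against 6.6%. The 4 with an unadjusted p under 0.05 became 19 without HMGN1_OE replicate 3, 7 without wild-type replicate 1, 2 without wild-type replicate 2, 1 without HMGN1_OE replicate 1 and 0 without HMGN1_OE replicate 2, Ts1Rhr replicate 2 or Ts1Rhr replicate 3. For all genes, the number at that p was not counted in the fits that left out 1 library, in either table.

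The genes were then related to the myeloid share of each library, read from Csf1r, the receptor that macrophages need to survive, and Cd68, a glycoprotein of their lysosomes. Csf1r was at 220.3, 171 and 186 raw FPKM in wild type, 122, 190.2 and 102 in HMGN1_OE and 108, 100.4 and 63.2 in Ts1Rhr. Cd68 was at 314, 202 and 196, 161, 223 and 117, and 128, 105 and 103 in the same order. Both fell in Ts1Rhr on raw FPKM, by 1.12 and 1.05 on the log2 scale (limma adjusted p 0.0330 and 0.0357), and neither passed on normalised FPKM (adjusted p 0.109 and 0.128). The mean of the log2 levels of Csf1r and Cd68 is called the myeloid index, and it was 8.04, 7.54 and 7.58 in wild type, 7.13, 7.69 and 6.77 in HMGN1_OE and 6.88, 6.68 and 6.34 in Ts1Rhr.

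Over the 9 libraries, 25 of the 34 genes correlated with this index on raw FPKM at an adjusted p under 0.05 (exact permutation of the libraries, two-sided, Benjamini-Hochberg over 10876 genes), all with a positive r, against 9.16% of all genes. All 34 r were above 0, with a median of 0.898 beside -0.023 over all genes, and 17 reached 0.9, against 3.1% of all genes. The index was lower in every Ts1Rhr library than in any wild-type one. These r therefore also hold the difference between those groups. Hexa had the highest r, 0.977 (rho 0.950, exact permutation p 7.99e-05 and 0.000353, adjusted p of r 0.0146). Atp6v0c had the lowest, and of the other genes Tfeb did, with r of 0.519 and rho of 0.583 (exact permutation p 0.154 and 0.108, adjusted p of r 0.294). By Spearman's rho 18 genes passed, against 5.02%, and on normalised FPKM 30 did, against 9.95%. On normalised FPKM r leaned positive over all genes, with a median of 0.242 and 1082 positive calls beside 15 negative ones. On raw FPKM these calls were 996 and 946. Without wild-type replicate 1 and Ts1Rhr replicate 3, the libraries farthest from the median index, the median r was 0.929. There 33 of 34 were above 0, but 0 of the 10876 genes passed at the adjusted threshold. The smallest exact permutation p was 0.000198, the lowest that so few libraries allow. Without wild-type replicate 1 alone the count was also 0 (median r 0.864), and 0 of the 10876 genes passed. In the other fits that left out 1 library it was 17 to 27, against 4.52% to 9.34% of all genes. It was 27 without Ts1Rhr replicate 3, against 9.34%, and 17 without wild-type replicate 2, against 4.52%.

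With the mean of each group removed, which leaves only differences among libraries of 1 genotype, all 34 genes kept an r above 0. Their median r was 0.737. None of the 10876 genes passed the adjusted threshold there. The smallest exact permutation p was 0.00463, the lowest that shuffling within groups allows, so that threshold could hardly be passed. Over all genes the median r was 0.00387. An unadjusted p under 0.05 with a positive r was reached by 10 members, against 4.96% of all genes, and an r of at least 0.9 by 3, against 1.2%. Hexa was at 0.931, Gla at 0.920, Npc1 at 0.902 and Tfeb at 0.154. In wild type and HMGN1_OE the library with the highest index, replicate 1 and replicate 2, also had the highest summed raw FPKM of the 34 genes. In Ts1Rhr it did not: replicate 1 had the highest index and a sum of 14991, and replicate 3, with the lowest index, had 15823.

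**Figure D4:**
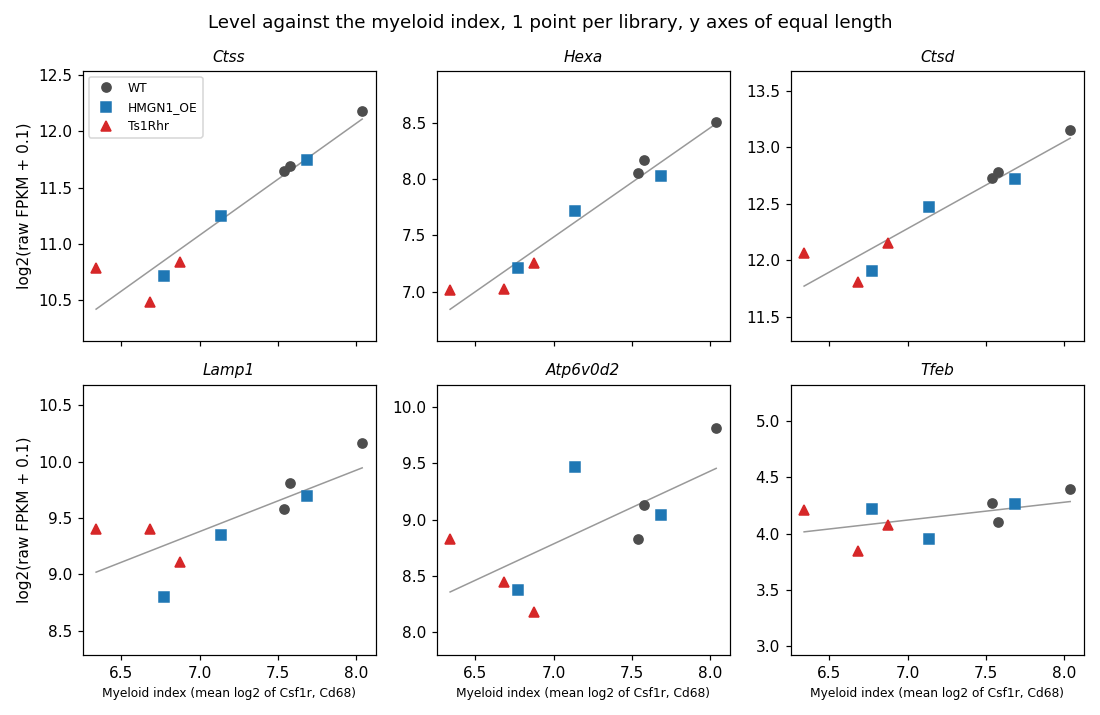
Log2 raw FPKM + 0.1 of 6 lysosomal genes against the myeloid index (mean log2 of Csf1r and Cd68), 1 point per library, grey line the least squares fit, y axes of equal length. Ctss and Hexa climb by nearly 1 log2 unit per unit of index, Lamp1 and Atp6v0d2 scatter more, and Tfeb is almost flat.

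The genes differed in how steeply they followed the index. The slope, in log2 units of a gene per log2 unit of index, was at least 0.8 for 5 of the 33 genes: Ctss at 0.99, Hexa at 0.97, Ctsb at 0.83, Ctsa at 0.82 and Gla at 0.80. A slope of 1 would mean that a gene changed in proportion to the markers. It was below 0.5 for 6 genes: Lamp2, Tpp1, Fuca1, Atp6v1a, Ctsc and Tfeb, at 0.46, 0.46, 0.46, 0.45, 0.35 and 0.16. These slopes include differences between groups. With group means removed, the slopes of Ctss, Hexa, Ctsb, Ctsa and Gla were 0.87, 0.76, 0.77, 0.65 and 0.51. That of Asah1 went up from 0.61 to 0.82, so the order of the genes differed within groups. The d subunits had similar slopes, 0.52 for Atp6v0d1 and 0.64 for Atp6v0d2, but differed in scatter, with an SD of the distance from the line of 0.118 and 0.414 log2 units. The r of Atp6v0d1 was 0.936 (exact permutation p 0.000576) and that of Atp6v0d2 was 0.681 (exact permutation p 0.0448, adjusted p 0.130).

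Ts1Rhr replicate 3 had the lowest index, yet 32 of 33 genes lay above their line in it, by a median of 0.28 log2 units. The number above the line was 27, 19 and 24 in wild type, 17, 5 and 4 in HMGN1_OE and 7 and 9 in Ts1Rhr replicates 1 and 2. Most genes were thus above their line in all 3 wild-type libraries as well, by a median of 0.023 to 0.072. The ratio of Csf1r to Cd68 was 0.611 in Ts1Rhr replicate 3, against 0.702 to 0.958 in the other libraries. With Cd68 alone as the index 27 genes correlated, against 10.2% of all genes, and with Csf1r alone 14, against 4.55%. An index of the other macrophage markers, without Csf1r, Cd68 and Lyz2, gave 27, against 10.4%. Rn45s, a ribosomal RNA precursor that polyA selection should remove, was at 10509.6, 1184 and 3043 in wild type, 4495, 2323 and 1082 in HMGN1_OE and 956, 325 and 3095 in Ts1Rhr raw FPKM. Within each group it was highest in wild-type replicate 1, HMGN1_OE replicate 1 and Ts1Rhr replicate 3. The part of Rn45s or of sex in these values was not tested.

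**Figure D5:**
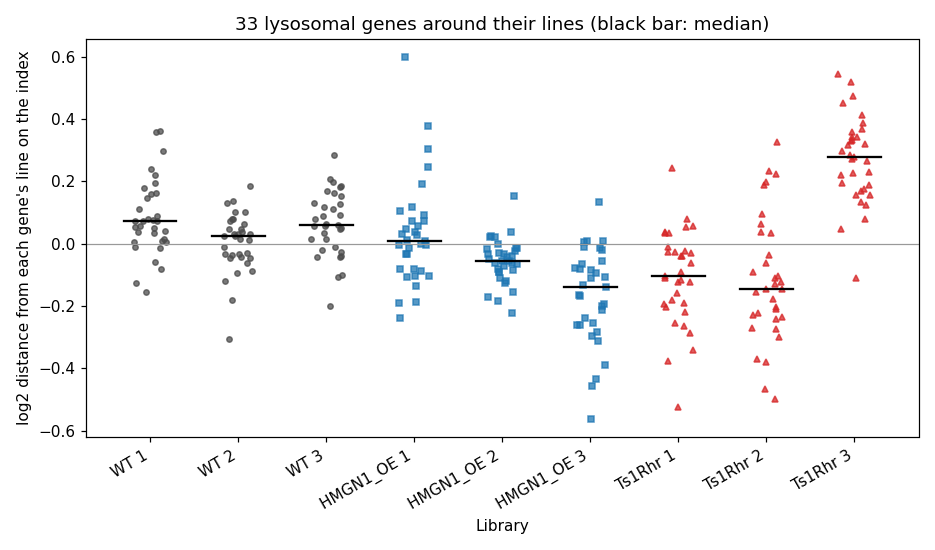
Distance of 33 lysosomal genes from their own line on the myeloid index (log2 units, y axis) in each of the 9 libraries, 1 point per gene, black bars the medians. The genes of Ts1Rhr replicate 3 lie above 0 with 1 exception, and those of HMGN1_OE replicate 3 mostly below.

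With the index as a term of the limma fit, Ts1Rhr against wild type gave 0 called genes among the 34 and 0 among all 10878, in both tables. On raw FPKM 26 of the 34 log2 fold changes were still below 0, with a median of -0.11 beside 0.03 over all genes, 0 had an unadjusted p under 0.05, and the median SE rose from 0.206 to 0.293. On normalised FPKM 10 of 34 were below 0, with a median of 0.10 beside 0.50 over all genes, and again 0 had an unadjusted p under 0.05. An index from the wider macrophage list gave 0 called genes as well, with 1 unadjusted p under 0.05 on raw and 0 on normalised FPKM. Shifting each library by its index, which sets the levels per unit of Csf1r and Cd68, left 3 of 34 below 0 on raw FPKM. This shift adds the same amount to every gene of a library, so it sets these signs: the median over all genes was 1.099, and limma called 71.9% of all genes in either direction. Of the members it called 2, Ctsc and Tfeb, both higher. Relative to all genes the median of the members is by construction the same as without the shift, -0.72.

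Other genes of the lysosome were counted from lists outside the 34. On raw FPKM, 9 of 30 other lysosomal enzymes fell in Ts1Rhr against wild type by limma and 0 rose, against the same 4.56% and 4.29% of all genes. The largest differences among them were those of Ctsk, a collagen-cutting cathepsin of osteoclasts, at -1.13 ± 0.26, Dnase2a, which digests the DNA of engulfed cells, at -0.92 ± 0.20, Lgmn, asparaginyl endopeptidase, at -0.91 ± 0.23, and Aga, which cleaves sugars from asparagine, at -0.89 ± 0.21. Ctsk was at 119, 83.7 and 93.4 in wild type, 56.8, 87.0 and 37.1 in HMGN1_OE and 43.6, 39.4 and 51.3 in Ts1Rhr raw FPKM, again lower in every Ts1Rhr library than in any wild-type one. Of 18 other membrane proteins tested, 4 fell: Cd63, a tetraspanin, at -0.87 ± 0.23, Hgsnat at -0.84 ± 0.24, Slc11a1, a metal transporter of phagosomes, at -0.79 ± 0.21, and Cln3 at -0.77 ± 0.19. Of 13 other pump subunits 1 fell, the accessory Atp6ap1, at -0.75 ± 0.19, and of 9 sorting genes 2 did, Nagpa, which completes the mannose 6-phosphate tag, at -0.83 ± 0.22, and Igf2r, a receptor for that tag, at -0.62 ± 0.15. On normalised FPKM limma called 0 genes in each of these lists.

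Of the 16 genes for MiT/TFE factors and mTORC1 at the lysosome, 12 had a log2 fold change below 0 and 4 above it on raw FPKM, and by limma 2 fell and 0 rose. Tfec, the family member of macrophages, was at 24.4, 15.5 and 15.9 in wild type, 14.8, 18.1 and 9.61 in HMGN1_OE and 9.29, 9.35 and 10.8 in Ts1Rhr raw FPKM and changed by -0.89 ± 0.24 on the log2 scale (limma adjusted p 0.0467). Lamtor1, which anchors mTORC1 to the lysosome, changed by -0.64 ± 0.16 (adjusted p 0.0399). The Tfec relatives Mitf and Tfe3 were lower in every Ts1Rhr library than in any wild-type one, with differences of -0.79 ± 0.28 and -0.69 ± 0.20 that did not pass (adjusted p 0.0850 and 0.0532), and Tfeb differed least of the family. Mtor, the kinase of mTORC1, went the other way, at 14.3, 19.4 and 18.1 in wild type, 18.1, 20.5 and 27.3 in HMGN1_OE and 24.4, 23.1 and 23.3 in Ts1Rhr. All its Ts1Rhr values were above wild type, with a difference of 0.46 ± 0.18 that did not pass (adjusted p 0.105). In HMGN1_OE against wild type, 0 genes of these lists were called in either table.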

How the data were processed

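RNA was extracted from equal cell numbers with 1 µl of ERCC spike-in RNA (diluted 1 to 1000), and polyadenylated RNA was sequenced, per the labels. The authors deposited 2 FPKM tables. The submitters' processing notes name HISAT, Cufflinks 2.0.0 and mm9, and the sources used here do not say how the second table was normalised. Each of 23398 rows was read, and 92 spike-in rows and 27 rows with dates for symbols were left out. Genes averaging at least 1 raw FPKM were tested with limma 3.58.1 (R 4.3.3, intensity trend, all 9 libraries in 1 fit, two-sided, Benjamini-Hochberg over 10878 genes) on log2(raw FPKM + 0.1) or on log2 of the normalised FPKM, which already holds about 0.1. Fold changes on this scale understate those of low genes. The normalised table was the planned main one, and raw results were reported beside it. Scripts were tested on simulated data. Per-library values are given for members called in any comparison, the highest member of each role, Tfeb, both d subunits and the highest and lowest r, with up to 4 genes per other list. The members and lists were chosen with earlier results of these data known. Promoter windows are RefSeq's.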

Additional observations from a re-analysis of the deposited data

How the results depend on the processing

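Ts1Rhr against wild type kept its direction for the 34 genes as a whole under every alternative that did not bring in the myeloid index. Called members on normalised FPKM went from 0 to 17 with raw FPKM and 15 with libraries shifted to the same median. They were 8 with raw FPKM at the same sum and 2 with only the 2 groups compared. With the shift by the index they were 2, both higher. Calls over all genes moved as well, from 62 to 963, 693, 944, 267 and 8668 in that order. Leaving out 1 library gave 0 to 1 called members, the 1 being without HMGN1_OE replicate 2, and 4 to 203 calls over all genes. Called members on raw FPKM went from 17 to 0 on normalised FPKM, 2 with no minimum mean and 1 with no intensity trend. They were 2 with the index shift, 0 with either index as a covariate and 0 without wild-type replicate 1 and Ts1Rhr replicate 3. Calls over all genes went from 963 to 62, 264 (of 16092 tested), 103, 7817, 0 and 2 in that order. Fits that left out 1 library gave 0 to 21 called members and 1 to 1276 calls over all genes. The cause was not tested. Taking raw FPKM as a result with alternatives of its own, and the fit without both libraries, were chosen after seeing the data.

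Same-numbered samples did not deviate together (correlations of -0.13 to 0.16), so the numbers were not used to pair them. For Ts1Rhr against wild type, a replicate block gave 1 called member on normalised and 4 on raw FPKM. Calls over all genes were 119 and 314 there.

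Relative to all genes, the median log2 fold change in Ts1Rhr was -0.93 on normalised and -0.72 on raw FPKM. With the index as a covariate it was -0.40 and -0.13, and with the wider macrophage index -0.46 and -0.17. The covariate also moved HMGN1_OE against wild type on raw FPKM from -0.46 to -0.17 (wider index -0.10), and Ts1Rhr against HMGN1_OE from -0.43 to -0.076 on normalised and from -0.27 to -0.012 on raw FPKM (wider index -0.18 and -0.091). Leaving out 1 library gave -1.06 to -0.71 and -0.77 to -0.61 for Ts1Rhr on normalised and raw FPKM, -0.71 to -0.28 and -0.63 to -0.28 for HMGN1_OE, and -0.65 to -0.28 and -0.46 to -0.14 between the mutants.

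Correlated members went from 25 to 14 with Csf1r alone and to 27 with the wider macrophage index. They went to 0 with group means removed or without the 2 farthest libraries, where few permutations are possible. An adjusted p under 0.05 there needs many genes at the lowest possible p. These counts of 0 therefore do not show a loss of correlation. Leaving out 1 library gave 0 to 27, the 0 being without wild-type replicate 1, where 0 of all genes passed.

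The shift by the index adds the same amount to every gene of a library and so sets the sign of single log2 fold changes. With it 3 of 34 members stayed below 0 in Ts1Rhr on raw FPKM, and the positive ones included Atp6v0d1 0.48, Ctsa 0.12, Ctsb 0.16, Ctsz 0.15, Gaa 0.37, Gla 0.080, Glb1 0.34, Grn 0.088, Gusb 0.39, Lipa 0.29, Mcoln1 0.29, Npc1 0.42, Npc2 0.27, Scarb2 0.38, Tcirg1 0.45, Ctsd 0.21, Psap 0.23, Lamp1 0.54, Atp6v0d2 0.32, Tfeb 0.88. With the index as a covariate Glb1 was 0.0035 and Lamp1 0.18, and with the wider index Lamp1 was 0.20. Depth is unknown, so no counting error could be given.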
